A study of Mus musculus with 6 samples.

Results

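Accessible chromatin was described at the mouse genes that write, copy and remove DNA methylation, in samples enriched in spermatogonia. The genes were Dnmt1, Uhrf1, Dnmt3a, Dnmt3b, Dnmt3l, Tet1, Tet2, Tet3 and Tdg, which are 9 of the 21436 protein-coding genes for which a 5′ end could be placed. They were chosen by name and not by any measured value, though earlier results of these data were known. Every ATAC-seq peak that overlapped one of these genes or the 10 kb on either side of it was taken in each of 6 peak lists. Peaks of different libraries that overlapped or touched were merged into regions, which gave 85 regions at these genes out of 158725 in all. A region within 3 kb of the 5′ end of its gene is called a promoter region, and the others are placed in the gene body, upstream or downstream.

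In ATAC-seq the Tn5 transposase inserts sequencing adapters into open chromatin, so that fragments pile up where DNA is accessible. The samples were labelled as spermatogonia, which are the dividing germ cells at the base of the seminiferous tubules, at postnatal day (Pnd) 5, with 50000 cells per sample. Libraries came from Sirt7-/- mice, which lack the histone deacetylase SIRT7 and are labelled S7KO (n = 3), and from wild-type mice, labelled WT (n = 3), and the contrast asked whether loss of SIRT7 altered accessible chromatin. Per the study both genotypes were kept on the 129S1/Sv background, whereas the reads were aligned to mm10, which derives from another strain. Spermatogonia were enriched by plating away somatic cells, and the study checked the cells with the marker PLZF, a check it shows for WT cells. For its ChIP-seq replicates the study states that a separate mouse gave the cells of each, and for ATAC-seq the number of animals per library is not given in the sources used here. The labels number the libraries 1, 2 and 4 in their titles, a second label gives some of them other numbers, and the title numbers serve only as names.

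The lists held between 105728 and 133663 peaks on chromosomes 1 to 19, X and Y, and the shortest was that of WT replicate 2. Sequencing depth is not given, so an absent weak peak is no measure of closed chromatin. A promoter peak was present in all 6 libraries at 14 of 14 spermatogonia markers, among them Zbtb16, which encodes PLZF. It was also present in all 6 libraries at 7 of 8 Sertoli cell markers, 5 of 6 Leydig cell markers, 5 of 5 peritubular and stromal markers, 3 of 4 endothelial markers, 1 of 4 blood markers and 2 of 4 genes of other tissues. The blood markers Ptprc and Adgre1 and the liver gene Alb had no promoter peak in any library. Promoter peaks therefore did not separate these cell types, the share of other testis cells was not measured, and fewer cells of a type and less open chromatin per cell cannot be told apart. Over the 45 marker genes, peaks covered more in S7KO without overlap at 2, the peritubular and stromal markers Tagln and Pdgfra, and less at 1, the Leydig cell marker Cyp17a1, against 7.36% and 0.589% of all genes. Promoter length, tested at all but the 3 markers without any promoter peak, was longer at 2 (Lin28a and Pdgfra) and shorter at 0, against 6.89% and 1.48%. The promoter peak, ranked by −log10 q, was compared at the 37 markers with such a peak in all 6 libraries. It was weaker in S7KO at 1 (Tagln) and stronger at 3 (the spermatogonia markers Lin28a and Nanos2 and the Sertoli cell marker Gata4), against 1.24% and 5.23%. The part of these markers in the results was not tested. The promoter of Sirt7 itself had a peak in all 6 libraries, which gave no check of the genotype labels.

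DNA methylation in mammals sits mainly on the cytosine of CpG dinucleotides. DNMT1 copies it to the new strand after replication and is guided there by UHRF1, DNMT3A and DNMT3B set it anew, and DNMT3L is a cofactor without catalytic activity that the male germ line needs for the methylation it acquires before birth. The TET enzymes oxidise 5-methylcytosine, and TDG is the glycosylase that excises the oxidised bases so that repair can replace them. Dnmt1 and Dnmt3a each have more than 1 promoter, and the choice of promoter differs between germ cells and other cells.

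RefSeq (GRCm38.p6) gives 16 transcript starts for the 9 genes, and not all of them lay under peaks. A peak covered 11 of the 16 starts in all 6 libraries, 2 starts in 4 libraries each and 3 starts in no library. The starts were read as windows of 300 bases, from 250 before to 50 after the start. Over all 32851 RefSeq starts the median window held 7 CpG, and 50.5% were covered by a peak in all 6 libraries. Starts with a GC content of at least 50% and a CpG observed over expected ratio of at least 0.6 are called CpG-rich here, and 95.5% of them were covered in all 6 libraries, against 27.9% of the others. Among the 16 starts, 8 were CpG-rich. Of these, 7 were covered in all 6 libraries, and 1 in 4 libraries. Of the 8 others, 4 were covered in all 6 libraries, 1 in 4 libraries, and 3 in none.

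Dnmt1, Dnmt3a and Uhrf1 each had starts of both kinds, whereas no start of Dnmt3l or Tet3 was CpG-rich. The 6 sequences that follow are the 250 bases before a start. They serve as examples of covered and uncovered starts, and of starts that were CpG-rich or not. They are written 5′ to 3′ on the strand of the gene, with each CpG in capitals. The first, Dnmt1 start 1, is the 5′ end of the gene (chr9:20959889-20960138, minus strand), has 2 CpG in the bases shown and lies under no peak. Dnmt1 start 3 (chr9:20952624-20952873, minus strand) has 26 CpG and lies 7265 bp into the gene under a peak in all 6 libraries. Dnmt3a start 1 (chr12:3806730-3806979, plus strand), with 38 CpG, and Dnmt3a start 3 (chr12:3891494-3891743, plus strand), with 15 CpG, were both covered in all 6 libraries. Dnmt3l start 3 (chr10:78055085-78055334, plus strand) has 3 CpG and was covered in none. Tet2 (chr3:133544391-133544640, minus strand) has 51 CpG, the most of the 16 starts, and was covered in all 6.
Dnmt1 start 1: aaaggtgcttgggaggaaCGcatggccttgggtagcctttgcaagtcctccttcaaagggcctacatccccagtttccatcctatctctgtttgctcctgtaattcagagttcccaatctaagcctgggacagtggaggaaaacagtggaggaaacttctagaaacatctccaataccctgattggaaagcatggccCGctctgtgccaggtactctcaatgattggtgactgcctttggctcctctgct
Dnmt1 start 3: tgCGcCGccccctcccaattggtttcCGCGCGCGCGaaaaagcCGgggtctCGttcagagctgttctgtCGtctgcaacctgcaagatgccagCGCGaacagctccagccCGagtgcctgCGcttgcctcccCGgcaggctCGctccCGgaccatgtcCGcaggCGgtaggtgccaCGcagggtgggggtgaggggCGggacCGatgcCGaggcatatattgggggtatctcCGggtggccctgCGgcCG
Dnmt3a start 1: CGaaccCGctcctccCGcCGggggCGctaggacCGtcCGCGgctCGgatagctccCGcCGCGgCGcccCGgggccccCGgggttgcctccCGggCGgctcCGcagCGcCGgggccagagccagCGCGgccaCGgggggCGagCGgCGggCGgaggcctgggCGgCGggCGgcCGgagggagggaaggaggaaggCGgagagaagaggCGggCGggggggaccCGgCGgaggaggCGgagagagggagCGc
Dnmt3a start 3: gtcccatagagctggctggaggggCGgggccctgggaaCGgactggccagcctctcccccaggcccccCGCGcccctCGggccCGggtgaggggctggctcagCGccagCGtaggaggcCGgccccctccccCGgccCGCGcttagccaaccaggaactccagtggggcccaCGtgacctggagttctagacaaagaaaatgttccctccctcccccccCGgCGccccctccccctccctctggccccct
Dnmt3l start 3: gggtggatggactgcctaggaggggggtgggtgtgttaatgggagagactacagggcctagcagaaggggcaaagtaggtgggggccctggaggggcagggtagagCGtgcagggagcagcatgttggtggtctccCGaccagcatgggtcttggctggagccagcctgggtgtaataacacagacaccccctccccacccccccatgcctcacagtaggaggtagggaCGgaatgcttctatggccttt
Tet2: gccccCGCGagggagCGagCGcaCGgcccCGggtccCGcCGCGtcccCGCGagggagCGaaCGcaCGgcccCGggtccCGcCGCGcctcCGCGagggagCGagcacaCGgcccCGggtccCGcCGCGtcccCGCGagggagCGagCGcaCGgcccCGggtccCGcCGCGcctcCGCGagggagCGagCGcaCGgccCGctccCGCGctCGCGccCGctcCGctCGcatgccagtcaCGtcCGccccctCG

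Across the windows of 300 bases, CpG observed over expected ran from 0.10 at Dnmt1 start 1 to 1.17 at Tet2. The starts of Dnmt3l had ratios of 0.27, 0.22 and 0.11, and the highest of these was below the highest of each other gene. Dnmt3a start 3, the start that lies 90185 bp into the gene, had a GC content of 74.0% but a ratio of 0.47. Short motifs were counted on both strands of the same windows, each motif separately, so that matches of different motifs may overlap. GGGCGG, the core bound by SP and KLF factors, was in 12 of the 16 windows and in at least 1 window of 8 of the 9 genes, all but Tdg, and in 35.7% of all RefSeq windows. CCAAT, bound by NF-Y, was in 6 of 16 windows, against 37.4% of all, and Dnmt1 start 1 held 5 matches. The E-box CACGTG was in 3 windows, against 7.15% of all, and CCGGAA, an ETS core, in 1, against 14.9%. GCATGCGC, which is a stretch of the NRF1 motif, was in 2 windows, both of Dnmt1, against 2.71% of all. The E2F words TTTGGCGC and TTTCCCGC were in 1 and 0 windows, against 0.514% and 1.07% of all, and the TATA box TATAAA was in 0 of 16, against 13.6%. The windows of Dnmt3a starts 1 and 2 overlap in part, so that 1 match can count in both. CpG-rich starts made up 8 of the 16 and 10995 of all 32851, and the shares were not matched for base composition. These matches are a description of the letters and no evidence of binding.

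**Figure D1:**
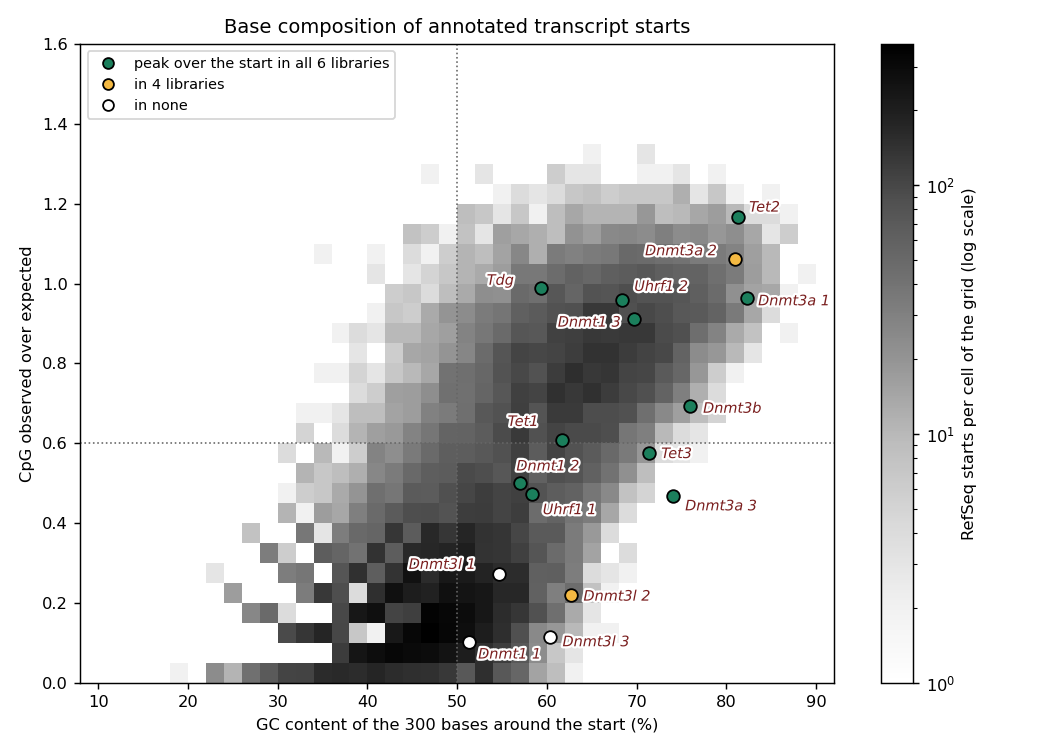
GC content (%) and CpG observed over expected ratio of the 300 bases around each RefSeq transcript start, with the 32851 starts as a grey density on a log scale (1 start above the axis top of 1.6 is not drawn) and the 16 starts of the 9 genes as circles. Green circles had a peak over the start in all 6 libraries, yellow in 4 and white in none, and dotted lines mark a GC content of 50% and a ratio of 0.6. The 3 uncovered starts sit at ratios of 0.10, 0.27 and 0.11.

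The 85 regions were mostly shared by the libraries. Of them, 51 (60%) were called in all 6 libraries, while 57.1% of all 158725 regions were. No region at these genes was present in each S7KO library (3 of 3) and absent from WT, a pattern held by 0.416% of all regions, and none showed the opposite pattern, held by 0.0743% of all. The nearest to such a pattern were 2 weak regions. Tet3 region 1, downstream of the gene, was shared by the 3 S7KO libraries with WT replicate 2, and Dnmt3a region 4, in the gene body, in all 3 WT libraries and in S7KO replicate 1. Their median ranks in the libraries that held them were 95.9% and 81.0% of the list. The rank is the place of a peak in its own library ordered by −log10 q, with 0% the strongest and 100% the weakest, and it is no measure of accessibility between libraries. Values of single libraries are given in the order of replicates 1, 2 and 4 throughout.

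Shared regions were also the wide and strong ones. Regions called in all 6 libraries had a median width of 1462 bp and a median rank of 21.6%, and the 15 regions called in a single library had a median width of 324 bp and a median rank of 94.3%. Over all regions of the genome the median width was 1058 bp for those in all 6 libraries and 391 bp for those in fewer. A region is the union of its peaks, so merging alone can widen a region that more libraries call. Of the 15 single-library regions, 12 came from S7KO libraries and 3 from WT libraries, which is 80% from S7KO, where 54.5% of all single-library regions were from S7KO. S7KO replicate 2 alone gave 6 of them, and WT replicates 1 and 2 gave 0. All 8 promoter regions were called in all 6 libraries, with a median width of 2018.5 bp. Gene bodies held 58 regions and 32 of these were shared by all 6 libraries, as were 5 of the 10 upstream regions and 6 of the 9 downstream regions. Exons and introns were not separated.

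**Figure D2:**
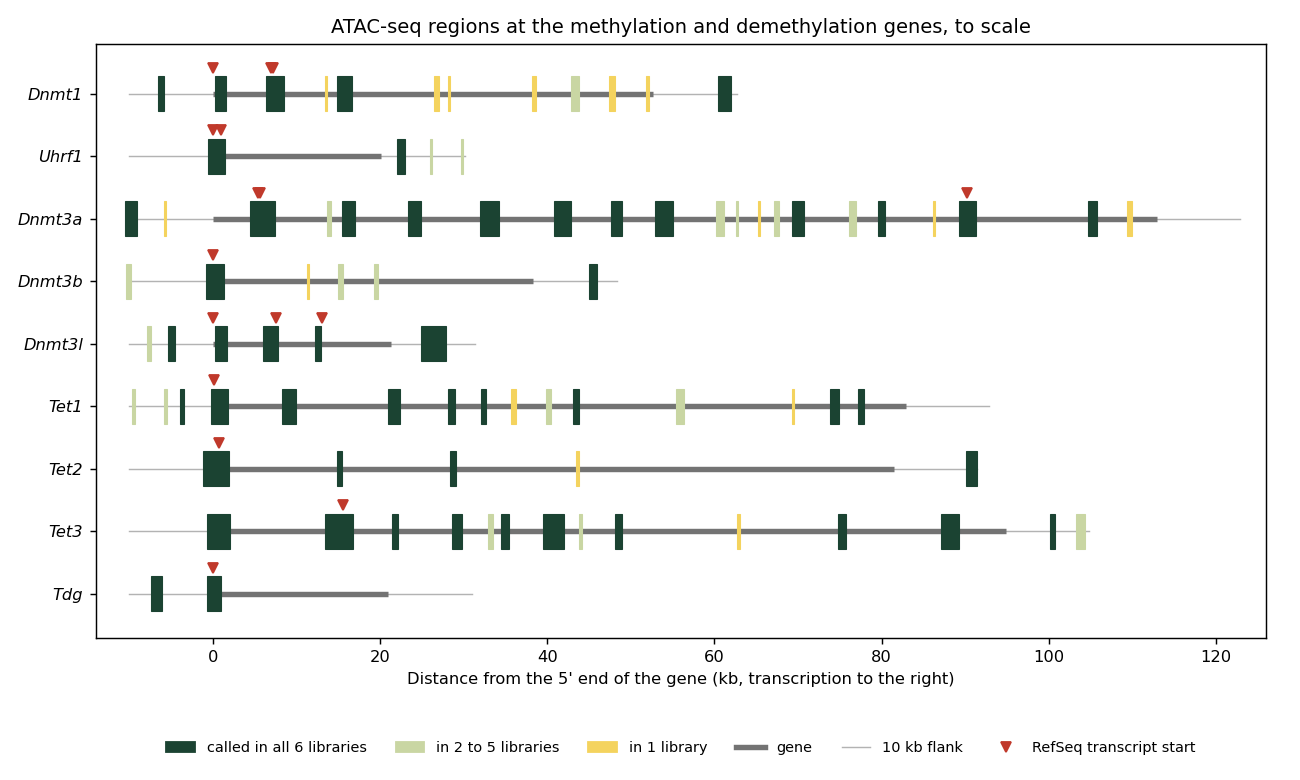
Regions at the 9 genes drawn to scale by distance from the 5′ end (kb), with transcription to the right, gene bodies as thick grey lines, 10 kb flanks as thin lines and RefSeq transcript starts as red triangles. Dark green regions were called in all 6 libraries (51), light green in 2 to 5 and yellow in 1 (15). Dnmt3a had the most regions, 21, and Tdg the fewest, 2.

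The gene windows differed widely in how much of them lay under peaks. The median over the 6 libraries was 17.0% at Dnmt3l, 13.7% at Dnmt3a, 12.0% at Tet3, 9.26% at Tet1 and 8.81% at Dnmt1. It was 7.63% at Uhrf1, 6.73% at Tdg, 5.84% at Dnmt3b and 5.06% at Tet2. Over all 21436 protein-coding genes, those without a peak included, it was 6.96%. By the rank of the best promoter peak, taken as the median of the 6 libraries, Uhrf1 came first at 5.92%, before Tdg at 8.38%, Tet1 at 8.91%, Tet2 at 13.0%, Dnmt3b at 14.2%, Dnmt3l at 17.8%, Tet3 at 20.4% and Dnmt1 at 46.3%. Neighbours in this order overlapped in their library values except Tet3 and Dnmt1. Dnmt3a had no peak within 3 kb of its 5′ end in any library. Over all genes with a promoter peak in all 6 libraries the median rank was 8.05%.

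Dnmt1 encodes the maintenance methyltransferase and lies on the minus strand of chromosome 9 from 20907206 to 20959888 (all coordinates in mm10, GRCm38). In its known structure a first exon used in oocytes lies upstream of the first exon of somatic cells. The strongest region of Dnmt1 was not at the 5′ end of the gene but 7444 bp inside it, measured to the centre. That region (chr9:20951341-20953547) covered both internal starts, including the CpG-rich start 3 shown above. Its peak ranked at 6.04%, 5.52% and 5.40% in S7KO and at 4.95%, 6.10% and 4.30% in WT, so the groups overlapped. The peak at the 5′ end of the gene ranked at 46.1%, 46.4% and 30.2% in S7KO and at 46.8%, 42.3% and 56.8% in WT. It began between 330 and 1044 bp inside the gene and did not cover start 1, whose window has 2 CpG. In every library the internal region thus ranked ahead of the promoter region. The promoter rank of Dnmt1 was weaker than that of 92.3% of genes with a promoter peak in all 6 libraries.

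Uhrf1 encodes the protein that brings DNMT1 to newly replicated DNA, and it had the strongest promoter of the set. It lies on the plus strand of chromosome 17 from 56303337 to 56323486, and a single region (chr17:56302751-56304787) covered both of its starts in all 6 libraries. The rank was 6.80%, 5.33% and 5.60% in S7KO and 6.23%, 8.55% and 5.04% in WT. The gene body outside the promoter held no region. Downstream, a region at the 5′ end of Kdm4b, which encodes a histone demethylase, was the strongest of all 85, with a worst rank of 0.447% over the 6 libraries.

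Dnmt3a encodes a de novo methyltransferase and had no promoter region by the rule, since the 5′ end of the gene record (position 3801559 on chromosome 12, plus strand) lies 5421 bp before the first RefSeq start. The region over that start (chr12:3806010-3809050) was 3041 bp wide. It was covered by 1 peak in S7KO replicates 2 and 4 and in WT replicates 1 and 4, with 3000, 2932, 3018 and 2960 bp covered. In S7KO replicate 1 and WT replicate 2 the same stretch was called as 2 peaks, with 2121 and 2151 bp covered, and the gap fell over start 2, which lay 104 and 98 bp outside the nearest peak. The peak covering start 1 then ranked at 54.0% and 39.1%, against 15.9% to 19.9% in the other 4 libraries, 1 library of each genotype standing apart. The other of the 2 peaks ranked at 7.98% in S7KO replicate 1 and at 11.7% in WT replicate 2, ahead of that range. The internal start 3, from which the short isoform DNMT3A2 is made, lay under a region (chr12:3890776-3892867) that ranked at 22.3%, 18.4% and 22.5% in S7KO and 16.0%, 30.7% and 20.2% in WT. Both starts were thus covered in all 6 libraries. The best-ranked region by median lay at neither, but 24175 bp into the gene (chr12:3824944-3826524), at ranks between 10.6% and 14.7%.

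Dnmt3b encodes the second de novo enzyme and had few peaks beyond its promoter. It lies on the plus strand of chromosome 2 from 153649411 to 153687730. Its promoter region (chr2:153648639-153650711) ranked at 16.7%, 14.6% and 13.1% in S7KO and at 13.7%, 21.2% and 12.9% in WT. The groups overlapped. The 3 regions in its gene body were each called in fewer than 6 libraries. The only other region in all 6 lay downstream of the gene (chr2:153694428-153695382), and it returns in the comparison of genotypes.

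Dnmt3l encodes the cofactor of the de novo enzymes, and none of its 3 starts lay under a peak in all 6 libraries. The gene lies on the plus strand of chromosome 10 from 78042287 to 78063622. At start 1 the nearest peak edge was 222 to 514 bp away, and the promoter region (chr10:78042509-78044037) also held the 5′ end of Aire, which encodes a transcription factor of the thymus and runs the other way. That region ranked at 14.9%, 18.0% and 16.8% in S7KO and at 17.6%, 22.3% and 19.0% in WT. Start 2 lay under a peak in the 3 S7KO libraries and in WT replicate 1, at ranks of 46.8%, 61.2%, 64.0% and 59.9%. In WT replicates 2 and 4 the same region was called, but its peak ended 227 and 178 bp short of the start. Start 3, shown above, lay 127 to 224 bp beyond the edge of a region (chr10:78054476-78055208) that ranked between 10.3% and 20.9%. Peaks thus lay close to each start of the gene without a shared call over any.

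Tet1 and Tet3 each had 11 regions in the gene body and Tet2 had 3. Tet1 lies on the minus strand of chromosome 10 from 62804570 to 62887469. Its promoter region (chr10:62885628-62887627) ranked at 9.70%, 8.23% and 8.37% in S7KO and at 8.95%, 12.9% and 8.86% in WT. A region in the gene body, centred 21652 bp from the 5′ end (chr10:62865075-62866559), ranked ahead of the promoter in every library, at 4.43% or better in all 6. It was the second strongest of the 85 regions by median rank, at 4.29%.

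Peaks covered more of the Tet2 promoter than of any other promoter of the set in 4 of 6 libraries, and in replicate 2 of both genotypes Tet3 was the wider. Tet2 lies on the minus strand of chromosome 3 from 133463677 to 133545136, and its promoter region (chr3:133543238-133546334) spanned 3097 bp around the start with 57 CpG in its 300 base window. Its rank was 15.8%, 11.8% and 8.80% in S7KO and 16.0%, 14.2% and 9.22% in WT. Only 4 other regions lay in its window of 101.46 kb.

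Tet3 lies on the minus strand of chromosome 6 from 83362373 to 83457208 and had accessible chromatin at its 5′ end and at its annotated start. The region at the 5′ end (chr6:83455148-83457853) ranked at 21.2%, 20.8% and 17.4% in S7KO and at 20.001%, 22.7% and 14.5% in WT. The start that RefSeq lists here lies 15530 bp into the gene, beside the 5′ end of the lncRNA B230319C09Rik. The region over it (chr6:83440480-83443739) was the widest of the 85, at 3260 bp, and ranked at 9.10%, 9.28% and 9.39% in S7KO and at 8.68%, 8.78% and 10.8% in WT. A region farther inside the gene, centred at 75251 bp (chr6:83381505-83382409), ranked at 8.70% or better in all 6 libraries.

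Tdg, which encodes the glycosylase, had the simplest landscape. It lies on the plus strand of chromosome 10 from 82629814 to 82650799 and had 2 regions in all, both called in all 6 libraries. The promoter region (chr10:82629158-82630768) ranked at 9.28%, 7.78% and 6.75% in S7KO and at 10.3%, 8.56% and 8.20% in WT. The other region lay upstream at the 5′ end of the gene 1190007I07Rik. Of all 85 regions, 7 held the 5′ end of a neighbouring gene in this way, and 6 of the 7 were called in all 6 libraries.

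**Figure D3:**
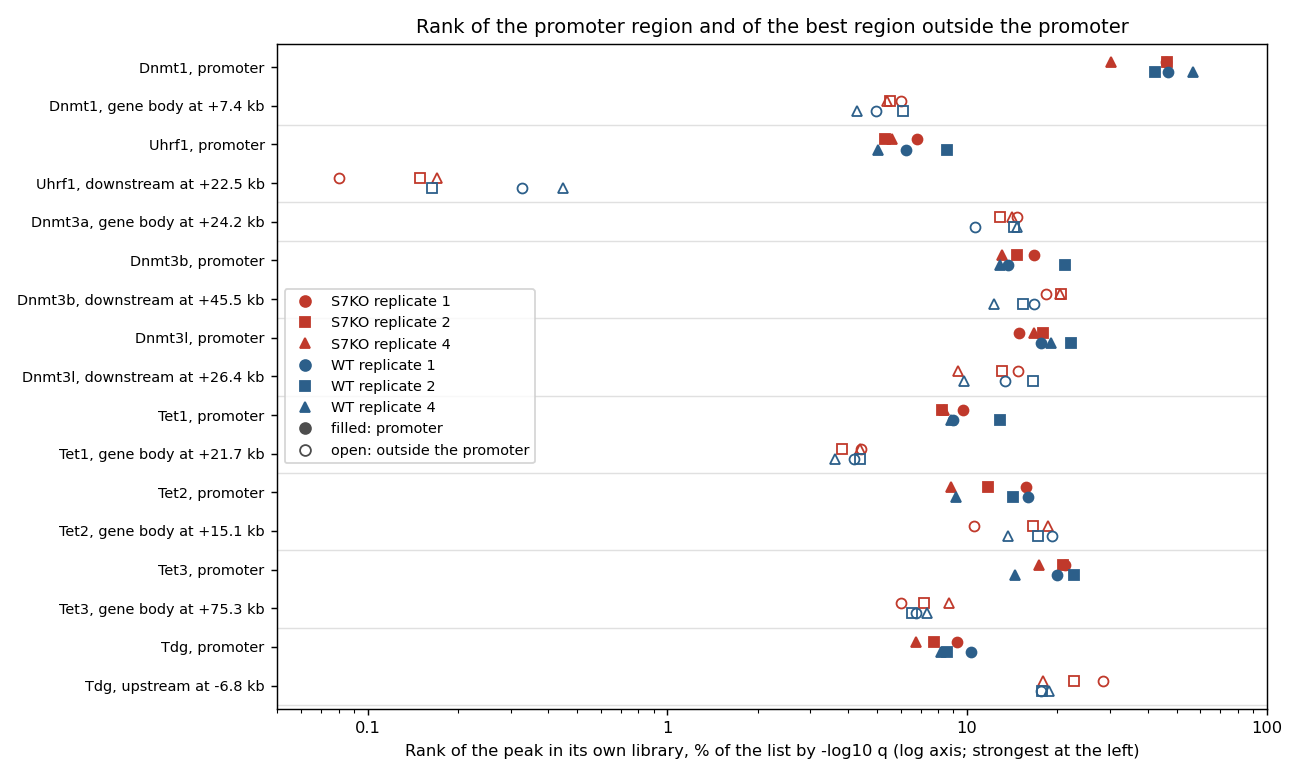
Rank of the best peak in each library (% of its own list by −log10 q, log axis, strongest at the left) for the promoter region of each gene (filled) and for its best-ranked region outside the promoter among those called in all 6 libraries (open). Red symbols are S7KO and blue WT, with circles, squares and triangles for replicates 1, 2 and 4. The Kdm4b region downstream of Uhrf1 stands far to the left, and at Dnmt1, Tet1 and Tet3 the open symbols lie left of the filled ones.

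The genotypes were then compared by the length that peaks covered in each gene window. With 3 libraries against 3, an exact permutation test (two-sided, 20 assignments) cannot give a p below 0.1, which is reached when the groups do not overlap, and after Benjamini-Hochberg adjustment over all genes the smallest adjusted p was 1 for every measure. No gene passed a test. Groups did not overlap at 2 of the 9 genes, Dnmt1 and Tet3, with S7KO above WT at both. Over 18508 genes tested, S7KO lay wholly above WT at 7.36% and wholly below at 0.589%, so S7KO lay above WT more often than below it over the genome as a whole. S7KO was the higher in 92.6% of these non-overlapping genes, in 81.9% with an equal number of peaks per library and in 50.5% without WT replicate 2. A count of 2 among 9 genes was not tested against that share.

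At Dnmt1 peaks covered 8081, 6498 and 6700 bp in S7KO and 6315, 4877 and 6025 bp in WT. Mean covered length was 7093 ± 862 bp (S7KO) and 5739 ± 760 bp (WT), each with its SD over 3 libraries, a difference of 1354 bp (exact permutation test, p = 0.1, adjusted p = 1). The lowest S7KO library, replicate 2, lay just above the highest WT library, replicate 1. Of the 12 regions at Dnmt1, 6 were called in 1 library only, and 5 of these 6 in an S7KO library. With equal numbers of peaks per library, with −log10 q of at least 2, within the gene alone and within 5 kb of it the groups overlapped at Dnmt1.

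At Tet3 peaks covered 15038, 15115 and 14055 bp in S7KO and 13204, 12081 and 13545 bp in WT. Means were 14736 ± 591 bp and 12943 ± 766 bp (SD, n = 3 each), a difference of 1793 bp (exact permutation test, p = 0.1, adjusted p = 1). Every S7KO library lay above every WT library, and this held in each alternative for the window. Leaving out a library could not undo it, since groups already apart stay apart, so those runs are no further check.

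The other 7 genes overlapped between genotypes. Peaks at Dnmt3a covered 18874 ± 1304 bp in S7KO against 17675 ± 2006 bp in WT (p = 0.4, exact permutation test) and those at Tet1 9776 ± 445 bp against 9039 ± 683 bp (p = 0.3, exact permutation test). At Dnmt3l they covered 7184 ± 339 bp and 6350 ± 1094 bp (p = 0.3, exact permutation test). Both genotypes were close at Uhrf1, with 3131 ± 315 bp and 3087 ± 191 bp (p = 0.8, exact permutation test), and at Tet2, with 4925 ± 439 bp and 4946 ± 796 bp (p = 1, exact permutation test). At Dnmt3b the values were 3524 ± 242 bp and 3096 ± 408 bp and at Tdg 2782 ± 44.0 bp and 2476 ± 475 bp. The S7KO mean was above the WT mean at 8 of the 9 genes, all but Tet2, and at 77.7% of all genes. WT replicate 2, the shortest list, had the lowest covered length of the 6 libraries at 8 of the 9, all but Dnmt3b. Without it the S7KO mean was above at 7 of the 9 genes and at 51.6% of all genes. Dnmt1 and Tet3 stay apart by construction when a library is left out, which is no further check of them.

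**Figure D4:**
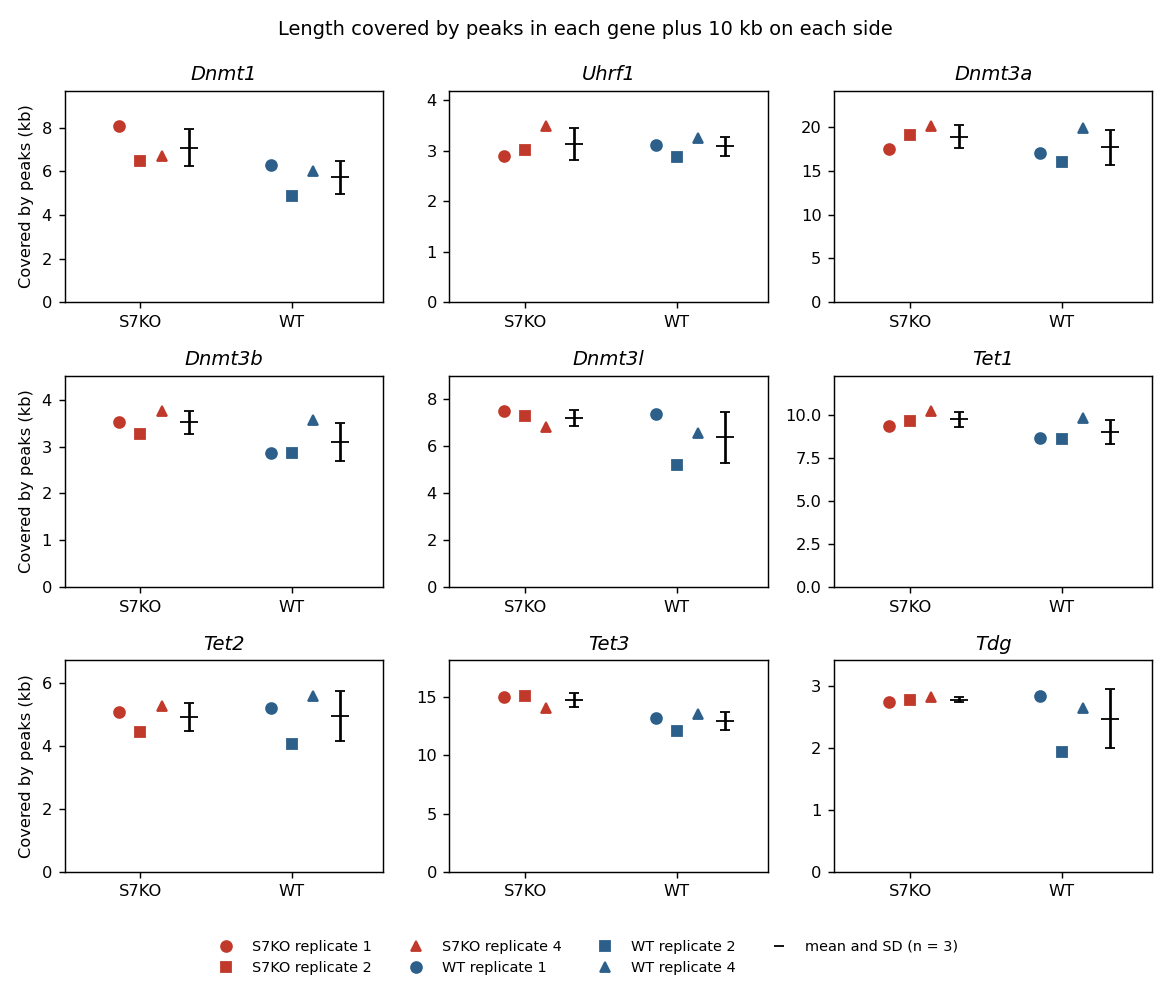
Length covered by peaks (kb, axes from 0) in each gene with 10 kb on either side, by library, for S7KO (red) and WT (blue), with circles, squares and triangles for replicates 1, 2 and 4 and the mean and SD (n = 3) in black. The groups are apart at Dnmt1 and Tet3 and overlap at the other 7 genes.

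At promoters the groups did not overlap at 1 of 8 genes, Tet1, and there S7KO was the lower. The promoter peak of Tet1 covered 1911, 1862 and 1844 bp in S7KO and 1922, 1980 and 1954 bp in WT. Means were 1872 ± 34.7 bp and 1952 ± 29.1 bp (SD, n = 3 each), a difference of -79.7 bp between S7KO and WT (exact permutation test, p = 0.1, adjusted p = 1). The nearest libraries of the 2 genotypes, both replicate 1, were almost equal, and the groups were apart by a small margin. Over 16772 genes tested, S7KO lay wholly below WT at 1.48% and wholly above at 6.89%. The direction at Tet1 was the same in each alternative. It could not change when a library was left out, since the groups were already apart, so those runs are no further check.

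By the rank of the promoter peak, the groups overlapped at all 8 genes. Over 15863 genes tested, the ranks of S7KO were wholly at higher values, that is weaker, at 1.24% and wholly at lower values at 5.23%. S7KO had the higher values in 19.2% of these non-overlapping genes and in 57.5% with an equal number of peaks per library, under which the more frequent direction of ranks turned. The largest difference of mean ranks, S7KO minus WT, was -7.76 percentage points at Dnmt1, with 40.9 ± 9.29% (S7KO) against 48.7 ± 7.42% (WT, SD over 3 libraries, p = 0.4, exact permutation test). At Dnmt3l the ranks were 16.6 ± 1.53% and 19.6 ± 2.40% (SD, n = 3 each, p = 0.2, exact permutation test).

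Single regions were compared in the same way among the 51 called in all 6 libraries. By rank the groups did not overlap at 4 regions, weaker in S7KO at 2 and stronger in S7KO at 2, where 1.35% and 5.98% of all 90689 such regions did so. By covered length they did not overlap at 7, longer in S7KO at 5 and shorter at 2, where 6.86% and 1.56% of all such regions did so. The smallest adjusted p was again 1. The regions described next were picked from these 11 results after their values were seen.

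At Tet2 lay both of the regions with stronger ranks in S7KO. In the gene body, centred 28704 bp from the 5′ end (chr3:133516096-133516768), the rank was 34.0%, 31.6% and 35.7% in S7KO and 46.4%, 43.9% and 41.6% in WT, a difference of -10.2 percentage points (exact permutation test, p = 0.1). Downstream of the gene (chr3:133453764-133455001) it was 31.6%, 43.0% and 45.0% in S7KO and 53.3%, 62.5% and 47.7% in WT, a difference of -14.7 points (exact permutation test, p = 0.1). The pair with weaker ranks in S7KO lay downstream of Dnmt3b and at a neighbour of Dnmt1. Downstream of Dnmt3b the rank was 18.3%, 20.5% and 20.3% in S7KO and 16.8%, 15.4% and 12.3% in WT, a difference of 4.90 points (exact permutation test, p = 0.1). At the promoter of Eif3g, a translation initiation factor gene downstream of Dnmt1, it was 6.93%, 5.89% and 5.98% in S7KO and 4.68%, 4.89% and 5.12% in WT.

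By length, the region over the internal starts of Dnmt1 was among those longer in S7KO. Peaks covered 2197, 2125 and 2123 bp of it in S7KO and 2084, 2023 and 2087 bp in WT, a difference of 83.7 bp (exact permutation test, p = 0.1), while its ranks overlapped. The region upstream of Dnmt1, that of Eif3g, 1 in the body of Tet3 and 1 in the body of Dnmt3a were also longer in S7KO. The largest difference of the 7 went the other way. In the body of Dnmt3a, 16200 bp from its 5′ end (chr12:3816993-3818526), peaks covered 833, 972 and 968 bp in S7KO and 1479, 1280 and 1534 bp in WT, or 924 ± 79.1 bp against 1431 ± 134 bp (SD, n = 3 each), a difference of -507 bp (exact permutation test, p = 0.1). The ranks of this region, from 39.9% to 84.9%, overlapped between genotypes.

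Other genes of the pathway were taken from a list of 32 and 31 were found, Dnmt3c being the exception, which was not analysed here. Among the 31, 30 had a promoter peak in all 6 libraries. Usp7, which encodes a ubiquitin protease that binds DNMT1 and UHRF1, was the exception, with a promoter peak in WT replicate 1 alone, at a rank of 97.3%. The window was longer in S7KO without overlap at 3 of the 31 and shorter at 0, against 7.36% and 0.589% of all genes. Promoter length was longer at 1 and shorter at 1, against 6.89% and 1.48%. By promoter rank, compared at the 30 with a peak in all 6 libraries, 0 genes were weaker in S7KO and 2 were stronger, against 1.24% and 5.23%. Neither passed the test. Morc1, a germ line gene needed to silence transposons, ranked at 29.8%, 28.7% and 35.6% in S7KO and at 35.7%, 36.1% and 42.5% in WT, a difference of -6.74 points (exact permutation test, p = 0.1, adjusted p = 1). Morc1 was also the gene with the shorter promoter length in S7KO, so its promoter peak ranked stronger there but covered less. All 8 genes of the readers of methylated DNA had a promoter peak in all 6 libraries and overlapped between genotypes in rank. Of these readers, 1 was among the 3 genes with a longer window in S7KO.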

How the data were processed

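ATAC-seq was run by the authors on 3 S7KO and 3 WT samples. Per the study's methods, reads were checked with FastQC 0.12.1, trimmed with Trim Galore 0.6.6 and aligned to mm10 with Bowtie2 2.4.4.1. Unique, non-duplicate reads were kept with SAMtools 1.19.2, mitochondrial reads were removed, Tn5 cut sites were shifted, fragments were filtered by size, and broad peaks were called per library with MACS2 2.2.5. The methods keep fragments of about nucleosome length and longer, whereas the study's text speaks of peaks from nucleosome-free fragments, and which of them entered the deposited peaks could not be settled. The deposited lists hold 4 values per peak from the authors' caller, namely a display score, the fold enrichment (a ratio to local background), a −log10 p-value and a −log10 q-value. The authors' differential test needs counts and was not repeated. Sequencing depth is not given, and no interval was set.

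Samples were grouped by the genotype in their titles. Gene positions, transcript starts and sequences came from RefSeq GRCm38.p6, the build of the lists. Strand came from the RefSeq promoter table (17491 genes) or from GENCODE by symbol and chromosome (3945). A genome of this build was not used, so sequences of regions are not shown. Peaks on other contigs were left out. The bp covered in gene windows and promoters and the rank of the best peak by −log10 q were computed for every gene in Python 3.11.15 (NumPy 2.4.6, pandas 2.3.3, SciPy 1.17.1) and the genotypes were tested by exact permutation (two-sided), with Benjamini-Hochberg adjustment over all genes. Scripts were tested on simulated data. All 9 genes are named. Other pathway genes are named where a library had no promoter peak or where the groups did not overlap in promoter rank (1 such gene is not reported here), and regions where they are the promoter or the best-ranked other region of a gene. The genes, lists and tests were chosen with earlier results of these data known, and the comparisons of single regions were added after seeing the data. Alternatives were an equal number of peaks per library (105728), −log10 q of at least 2, other window and promoter sizes, ranking by fold enrichment, 50% coverage of a region, merging across gaps of up to 100 bp, leaving out each library and a replicate block.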

Additional observations from a re-analysis of the deposited data

How the results depend on the processing

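The count of genes whose groups did not overlap in window length was 2, and it was 1 with −log10 q of at least 2, 1 within the gene alone and 1 within 5 kb of the gene, Tet3 being the 1 left in each. It was 3 with an equal number of peaks (Dnmt3a, Dnmt3b and Tet3) and ranged from 2 to 5 without 1 library, the most being without WT replicate 4. For promoter length the count was 1 (Tet1), with a range from 1 to 3 without 1 library. For promoter rank it was 0, with 1 gene (Dnmt3l) when peaks were ranked by fold enrichment and a range from 0 to 2 without 1 library. Regions called in every library numbered 51, with a range from 40 under 50% coverage to 54 without WT replicate 1 or 2. Genotype-specific regions were 0 in each direction and ranged from 0 to 1 without 1 library, Dnmt3a region 4 becoming WT-specific without S7KO replicate 1 and Tet3 region 1 S7KO-specific without WT replicate 2. Non-overlapping regions ranged from 6 to 9 by rank, against 4, and from 10 to 16 by length, against 7, without 1 library. With fewer libraries, groups are apart more often by construction, and the other causes were not tested. At the Eif3g region the difference in rank was 1.37 points, 1.96 with an equal number of peaks and 5.46 by fold enrichment. Deviations of libraries with the same replicate number had correlations of 0.118, -0.176 and 0.451, and not every library correlated best with its own number, so the numbers were not taken as pairs. With a replicate block, in which all 3 differences must share a sign, the counts were 6 genes for window length, 4 for promoter length, 3 for promoter rank, 14 regions by rank and 21 by length, where 23.7%, 23.3% and 21.9% of all genes and 25.2% and 24.1% of all regions met it. Over all genes, the share of non-overlapping genes with the higher value in S7KO went for promoter length from 82.3% to 48.6% without WT replicate 2, and for promoter rank from 19.2% to 57.5% with an equal number of peaks and to 50.2% without WT replicate 2. Depth is unknown, the lists differ in length, and 3 libraries per genotype cannot give a p below 0.1.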
